A study of Mus musculus with 2 samples.

Results

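The clustered protocadherin genes of the mouse lie in 3 tandem arrays on chromosome 18, in the order alpha (Pcdha), beta (Pcdhb) and gamma (Pcdhg). Their CTCF regions were taken from the mm9 map as every region whose centre lay between 36.50 and 38.50 Mb, which covers the arrays (about 37.09 to 38.00 Mb) and a flank on each side. This gave 99 regions of 53551 in the map, of which 48 lay in the arrays, 1 between the arrays and 50 in the flanks. The rule selected regions by position alone, although it was set with earlier results of these data known.

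The map comes from 1 ChIP-seq library. Chromatin of thymocytes from C57BL/6 mice that lack Rag1, 4 to 8 weeks old, was precipitated with an antibody against CTCF. These are double-negative cells, T cell precursors that display neither the CD4 nor the CD8 coreceptor, and without RAG1 they cannot rearrange their receptor genes or pass beyond this stage. All cells in the map share this genotype, and the number of animals pooled is not stated in the labels. An input library of the same cells was described but not used here. No marker gene of thymocytes can be read from a list of binding positions, so the label of the cells was not checked.

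Protocadherins are cell-surface adhesion proteins, best known in neurons, where each cell uses a small, variable choice of the genes of these arrays and so acquires its own surface identity. In the alpha and gamma arrays many variable exons, each with its own promoter, stand in a row ahead of a few constant exons that all transcripts share. Genes of the beta array consist of single exons and share no constant part. CTCF, a zinc-finger protein that anchors chromatin loops together with cohesin, is known to bind at most of the variable promoters, and in the alpha array inside the variable exons as well. It also binds at the distant enhancer HS5-1, which lies between the alpha and beta arrays. Double-negative thymocytes are not a cell type in which these arrays are usually studied.

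By name, the RefSeq gene table (GRCm38.p6) holds 14 protein-coding alpha genes, from Pcdha1 to Pcdhac2. It holds 22 beta genes, from Pcdhb1 to Pcdhb22, and 21 gamma genes, from Pcdhga1 to Pcdhgc5. Slc25a2 and Taf7 stand between the last beta and the first gamma gene, Zmat2 stands before Pcdha1, and Diaph1 follows Pcdhgc5. Because that table follows another build, no region was assigned to a gene. The arrays were instead given approximate mm9 limits rounded to 10 kb: 37.09 to 37.35 Mb for alpha, 37.42 to 37.68 Mb for beta and 37.82 to 38.00 Mb for gamma.

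A region is a run of touching 25-bp bins that the authors listed as CTCF peaks. The list gives positions without height or read number, so the depth behind a region is unknown and its width is the only measure of size. There was no replicate, and every interval below covers counting error only. Regions of one array are not replicates of each other, and no p-value is given.

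CTCF regions were most crowded in the gamma array. It array held 21 regions in 180 kb, or 11.7 per 100 kb (exact Poisson 95% interval 7.22 to 17.8). The alpha array held 14 in 260 kb, or 5.38 per 100 kb (2.94 to 9.03). The beta array, of the same length, held 13, or 5.00 per 100 kb (2.66 to 8.55). The left flank, on the side of lower coordinates, held 20 regions in 590 kb, which is 3.39 per 100 kb (2.07 to 5.24). The right flank held 30 in 500 kb, which is 6.00 per 100 kb (4.05 to 8.57).

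Density in the gamma array was 2.54 times that of both flanks together (exact binomial 95% interval of the ratio 1.45 to 4.31). It was 2.17 times that of the alpha array (1.05 to 4.61) and 2.33 times that of the beta array (1.11 to 5.07). Against the right flank alone the ratio was 1.94 (1.06 to 3.51), and against the left flank alone it was 3.44 (1.78 to 6.69). All of these intervals lay above 1, but they cover counting error only, and the inner limits of the arrays were drawn with the map known. Alpha and beta did not differ from each other beyond counting error, with a ratio of 1.08 (0.470 to 2.49). Their ratios to the flanks, 1.17 for alpha (0.599 to 2.16) and 1.09 for beta (0.543 to 2.04), also had intervals that included 1.

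The 3 arrays together had 6.86 regions per 100 kb against 4.59 in the flanks, a ratio of 1.49 whose interval (0.985 to 2.27) also included 1. The ratio was 2.02 against the left flank alone (1.18 to 3.60) and 1.14 against the right flank alone (0.710 to 1.87). The flanks themselves were crowded. They had 2.77 times the density of the rest of chromosome 18 (2.05 to 3.67), where 1420 regions made 1.66 per 100 kb. For the 3 arrays the ratio to the rest of the chromosome was 4.14 (3.04 to 5.52), and for gamma alone it was 7.04 (4.35 to 10.8).

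**Figure D1:**
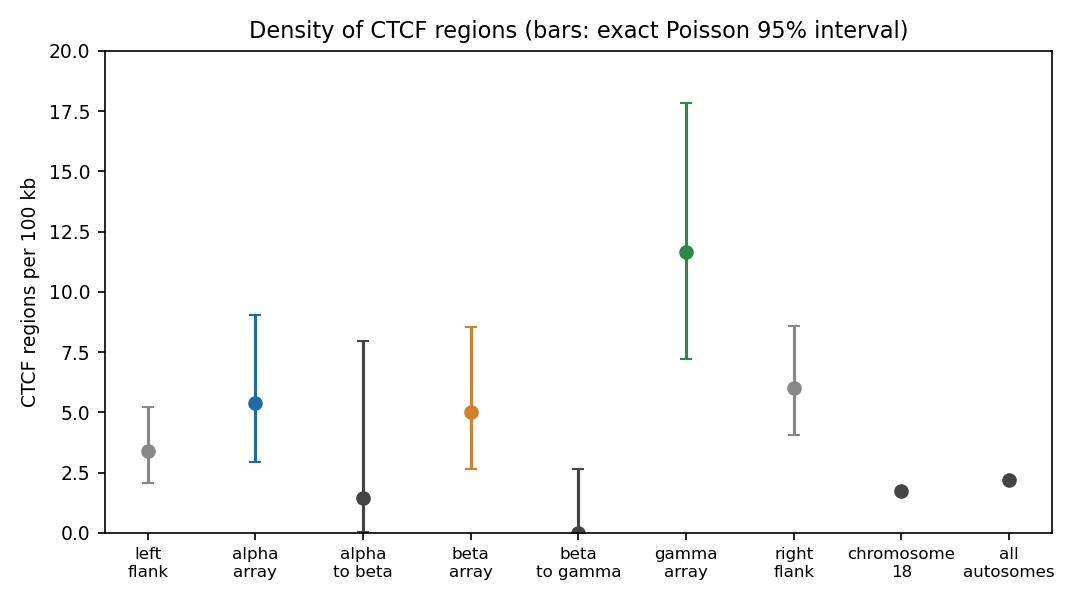
CTCF regions per 100 kb (vertical axis) in each flank, array and interval between arrays, on chromosome 18 and on the 19 autosomes; points are counts over length and bars are exact Poisson 95% intervals. The gamma array stands highest at 11.7 per 100 kb, and the interval between beta and gamma holds 0 regions.

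Among all autosomal windows of equal length, laid end to end, the gamma count was among the highest and the counts of alpha and beta less so. Of 13368 windows of 180 kb, 73 (0.546%) held at least 21 regions, and the median window held 2. Of 9253 windows of 260 kb, 11.1% held at least the 14 regions of the alpha array and 13.2% at least the 13 of the beta array, with a median of 4. For the flanks, 24.8% of windows of 590 kb had at least 20 regions and 6.70% of windows of 500 kb had at least 30. CTCF regions covered 4.76% of the gamma array, 1.62% of alpha and 1.41% of beta, against 1.35% of the left and 2.78% of the right flank. Over the autosomes they covered 0.837%. These places among windows are descriptions without a test.

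Regions were concentrated at the lower-coordinate part of the alpha and gamma arrays and scarce at the other end. When each array was divided into 3 equal parts in the order of rising coordinates, alpha had 12, 2 and 0 regions. Gamma had 10, 10 and 1. In the beta array the parts held 7, 1 and 5. The division into parts was chosen after the values were seen, and no region was assigned to an exon. The beta array thus had regions toward both ends and few in the middle, whereas the last part of alpha and of gamma held 0 and 1.

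**Figure D2:**
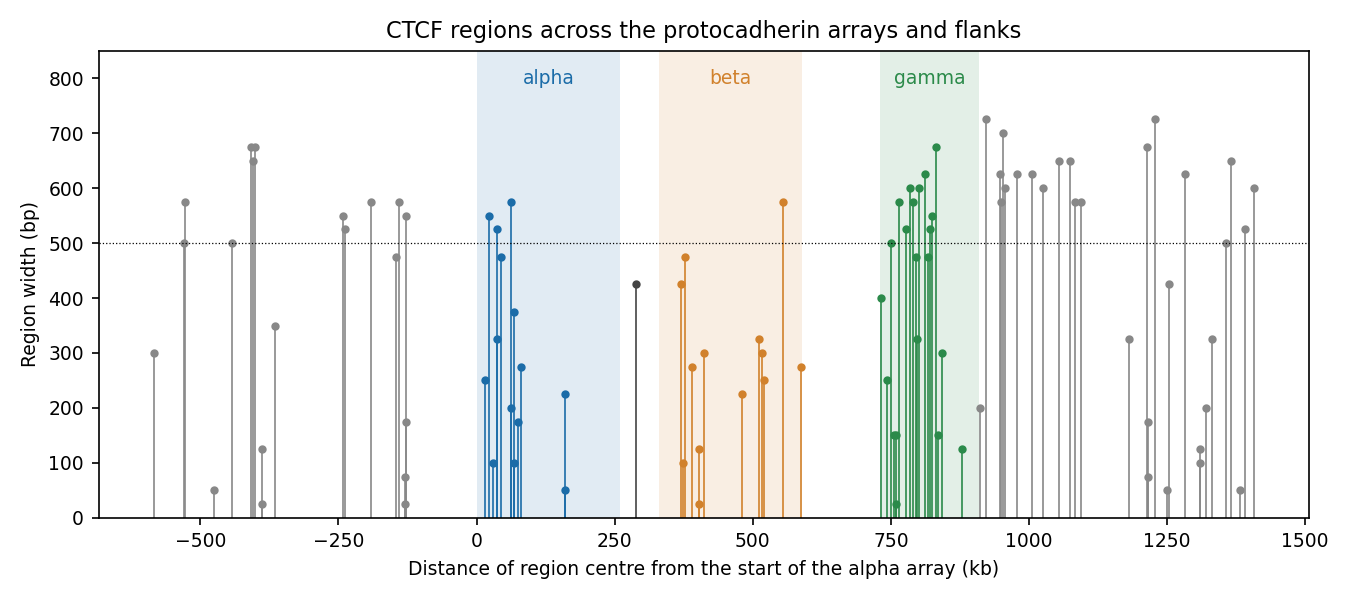
Each vertical line is 1 CTCF region, placed by the distance of its centre from the start of the alpha array (horizontal axis, kb), with its width as height (vertical axis, bp); shaded bands are the arrays, grey lines the flanks, the black line the region between alpha and beta, and the dotted line 500 bp. The gamma array is filled with regions over its first 2 of 3 parts, alpha is filled over its first part only, and the space between beta and gamma is empty.

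For spacing, neighbouring regions up to 1000 bp apart counted as 1 site, and distances were measured between the centres of neighbouring sites. This left 10 sites in alpha, 12 in beta and 20 in gamma. The median distance was 7.10 kb in alpha (quartiles 6.44 and 7.78 kb), 13.0 kb in beta (4.71 and 32.1 kb) and 5.40 kb in gamma (4.52 and 7.03 kb). Over the 19 autosomes it was 20.9 kb (8.11 and 50.7 kb). In the left flank the median was 24.0 kb (5.46 and 46.1 kb), and in the right flank 15.0 kb (9.68 and 25.6 kb).

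The alpha sites stood at nearly equal steps, apart from a pair of long distances. In order, the distances were 7.28, 6.98, 7.78, 6.44, 18.1, 5.45, 7.10, 5.63 and 79.1 kb. The first 5 sites, from 37105482 to 37134306, were thus separated by 6.44 to 7.78 kb, with a mean of 7.12 ± 0.560 kb (SD over 4 distances). The next 4, from 37151582 to 37170506, were separated by 5.45 to 7.10 kb, with a mean of 6.06 ± 0.906 kb (SD over 3 distances). The coefficient of variation, the SD divided by the mean, was 0.0787 in the first group and 0.150 in the second. Both groups were picked out after the distances were seen, as rows of neighbours within 15 kb of each other. Of the 1011 autosomal rows found in the same way with at least 5 sites, 2 (0.198%) were as even as the first group or more so, the group itself included. Of 1968 such rows with at least 4 sites, 72 (3.66%) were as even as the second. Both sets also hold rows longer than the group, since 1011 of the 1968 had at least 5 sites. The shares thus do not compare rows of equal length. These shares only describe the groups. In the first group, the site at 37119807 to 37119906 was a single region of 100 bp. Without it the steps of 6.98 and 7.78 kb would become 1 longer step. The next site, at 37127132 to 37128131, was a pair of regions joined across 150 bp. How even the group would be without that narrow region or that joining was not computed.

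The gamma sites formed a long row of short steps. Distances from the start of the array ran 12.5, 5.98, 5.00, 4.68, 4.44, 12.7, 7.71, 5.56, 5.40 and 2.20 kb. They continued with 2.99, 11.1, 4.90, 4.60, 4.19, 5.94, 4.24 and 6.35 kb, and the last was 36.7 kb. Of the 19 distances, 15 were under 10 kb, and the 3 between 10 and 13 kb were spread along the row. The shortest, 2.20 kb, separated the sites at 37885082 and 37887357.

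With neighbours counted as linked when within 15 kb, the gamma row held 19 sites over 111 kb, from 37821182 to 37932006. It was the longest of 26032 such rows on the autosomes, and the longest other row held 15 sites. Its rank depended on the limit, which was chosen after the distances were seen. At 12 kb the row kept 13 sites and was again the longest, and at 20 kb it ranked 2. At 25 kb it ranked 32, at 10 kb it was cut to 7 sites and ranked 28, and at 8 kb it had 7 sites and ranked 13. Within the 19 sites the coefficient of variation was 0.492. No other autosomal row found at 15 kb was as long, so this value had no row of like size beside it. Of 43402 autosomal runs of 19 sites, taken without a distance limit, 48 (0.111%) were at least as even. The limit keeps long distances out of the row but not out of the runs, so this share only describes the row.

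Beta sites were unevenly spaced. The distances were 2.46, 4.14, 13.0, 13.3, 7.89, 70.1, 30.8, 5.29, 2.35, 34.9 and 33.5 kb. Short and long steps were mixed. The shortest, 2.35 kb, lay between the sites at 37607207 and 37609582, and the longest, 70.1 kb, between those at 37501057 and 37571182.

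Over each whole array, regularity was not apparent in the coefficient of variation, because a single long distance set the value in alpha and gamma. It was 1.50 in alpha, 1.05 in beta and 0.982 in gamma. Without the longest distance of each array it was 0.510, 0.895 and 0.492. Of all autosomal runs with the same number of sites, 90.8% were at least as even as the whole alpha array, 56.7% as beta and 34.5% as gamma. The left flank had 1.05 (48.9% of runs) and the right flank 0.897 (15.6%), and without their longest distance they had 0.833 and 0.600. Dropping the longest distance thus lowered the value in the flanks as well, but not to the values of alpha and gamma. Beta stayed above both flanks. Autosomal runs were not treated in this way, so whether such low values are particular to alpha and gamma was not tested.

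**Figure D3:**
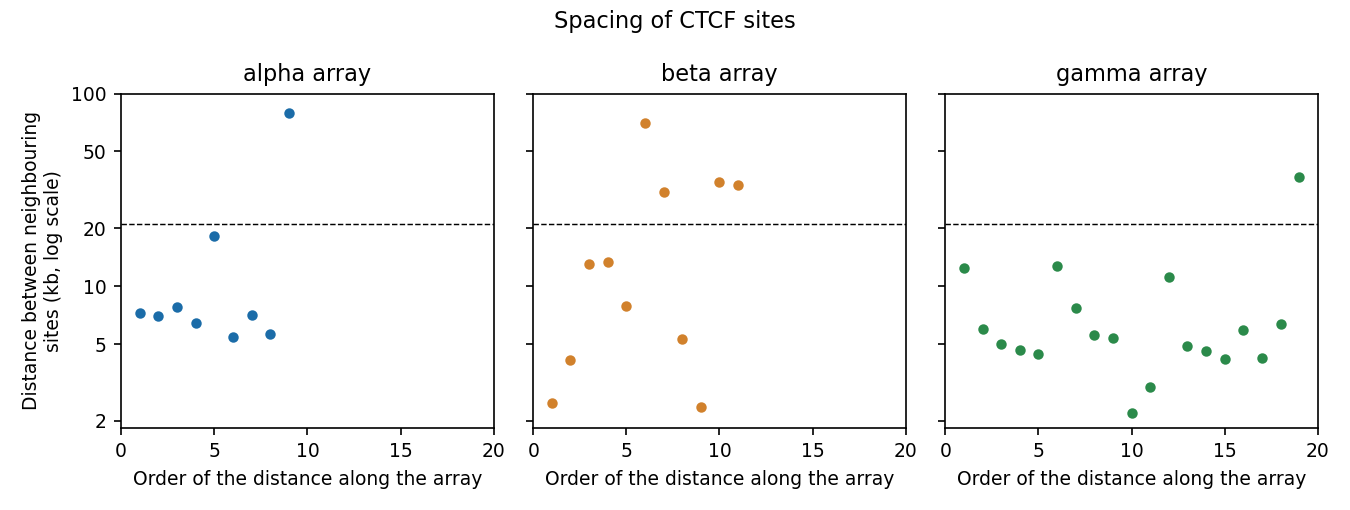
Distances between neighbouring CTCF sites (vertical axis, kb, log scale) in their order along each array (horizontal axis); the dashed line is the autosomal median of 20.9 kb. Alpha distances cluster near 7 kb except 18.1 and 79.1 kb, gamma distances mostly lie between 4 and 8 kb, and beta distances run from 2.35 to 70.1 kb.

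Very short gaps between regions occurred in each array. In alpha, 4 of 13 gaps between regions, measured from end to start, were 1000 bp or less. These close pairs began at 37127132, 37151582, 37157132 and 37249357, with gaps of 150, 450, 550 and 25 bp. Beta had 1 such gap of 12 and gamma 1 of 20, of 125 and 75 bp, and the 3 arrays together had 6 of 45 (13.3%). The share was 16.3% over the autosomes and 12.5% in the flanks. Without regions of 100 bp or less the 6 close gaps of the arrays became 2. Differences between the arrays in these small counts were not tested. Longer gaps, from 1 to 5 kb, accounted for 11 of 20 in gamma (55.0%), 4 of 12 in beta and 1 of 13 in alpha, against 14.5% of autosomal gaps and 9 of 48 in the flanks. In alpha 6 of 13 gaps were over 5 and up to 10 kb, compared with 11.5% of autosomal gaps.

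Regions in alpha and beta had lower median widths than those of the flanks, while gamma lay between. The median width was 263 bp in alpha (quartiles 181 and 450 bp), 275 bp in beta (225 and 325 bp) and 475 bp in gamma (250 and 575 bp). It was 500 bp in the left flank (163 and 575 bp) and 575 bp in the right flank (231 and 625 bp). The autosomal median was 425 bp (125 and 600 bp).

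Of all autosomal regions, 46.8% measured at least 500 bp. In the arrays they numbered 14 of 48, or 29.2% (exact 95% interval 17.0 to 44.1%), and in the flanks 30 of 50, or 60.0% (45.2 to 73.6%). These intervals did not overlap, but the flanks were pooled for this comparison. The left flank alone had 11 of 20 (55.0%, 31.5 to 76.9%) and the right flank 19 of 30 (63.3%, 43.9 to 80.1%). Taken singly, each flank had an interval that overlapped that of the arrays. The interval of the pooled flanks included the autosomal share, and that of the arrays lay below it. By array there were 3 of 14 in alpha (21.4%, interval 4.66 to 50.8%), 1 of 13 in beta (7.69%, 0.195 to 36.0%) and 10 of 21 in gamma (47.6%, 25.7 to 70.2%). The beta interval lay wholly below the autosomal share, and the alpha and gamma intervals included it. Gamma and beta intervals overlapped. At the narrow end, 22.4% of autosomal regions measured 100 bp or less, against 3 of 14 in alpha, 2 of 13 in beta, 1 of 21 in gamma and 8 of 50 in the flanks. Most regions of alpha and beta were of intermediate width. The exact intervals for 100 bp or less, 4.66 to 50.8% in alpha and 1.92 to 45.4% in beta, included the autosomal share. These counts are too small to tell whether very narrow regions were more or less common there than over the autosomes. The share in alpha was higher when close pairs were joined, which counts the gap between them into the width. Joined within 1000 bp, 4 of 10 alpha sites measured at least 500 bp (exact interval 12.2 to 73.8%), with a median of 388 bp. So did 10 of 20 gamma sites (27.2 to 72.8%). The share was then 8.33% in beta (0.211 to 38.5%), 68.2% in the flanks (52.4 to 81.4%) and 56.0% over the autosomes. The beta interval still lay below the autosomal share, and those of alpha and gamma still included it.

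**Figure D4:**
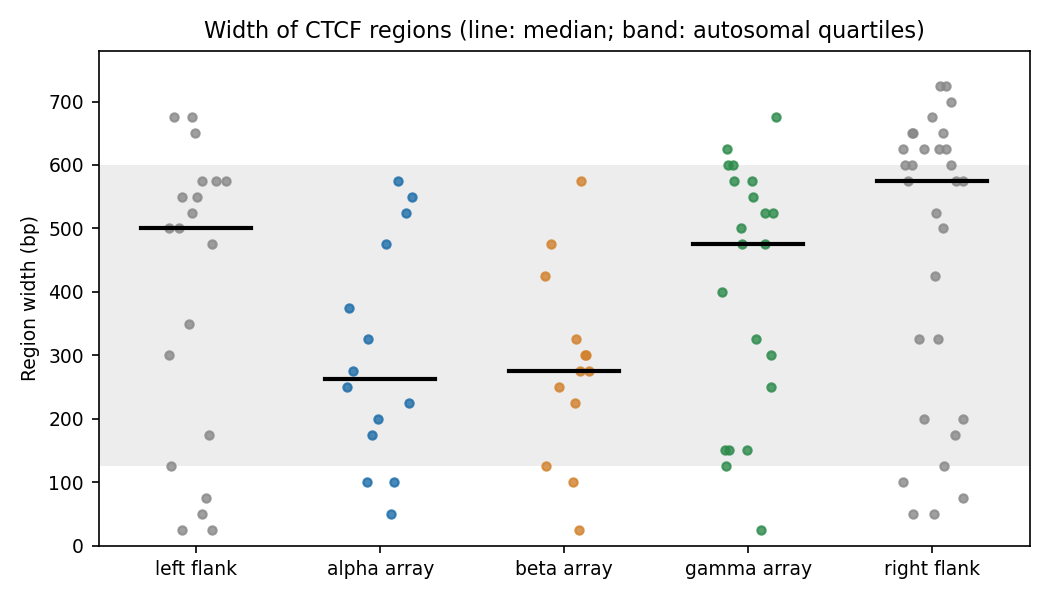
Widths of CTCF regions (vertical axis, bp) in each flank and array; points are regions, spread sideways for visibility, black lines are medians and the grey band spans the autosomal quartiles of 125 and 600 bp. Most alpha and beta points lie below 500 bp, and the right flank has the highest median, 575 bp.

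The alpha widths in order of position were 250, 550, 100, 325, 525, 475, 200, 575, 375, 100, 175, 275, 50 and 225 bp. Wide and narrow regions were mixed along the evenly spaced row. The 3 widest were those at 37152232 to 37152806 (575 bp), 37112607 to 37113156 (550 bp) and 37127607 to 37128131 (525 bp). The last 2 regions, starting at 37249357 and 37249432, stood alone after 78.9 kb without a region.

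Beta widths ran 425, 100, 475, 275, 25, 125, 300, 225, 325, 300, 250, 575 and 275 bp. The widest, 575 bp at 37644282 to 37644856, was the only one of 500 bp or more and had its nearest neighbours over 33 kb away. Next came 37466782 to 37467256 (475 bp) and 37460207 to 37460631 (425 bp), both in the group of close sites at the start of the occupied stretch.

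Gamma widths began with 400, 250, 500, 150, 150, 25, 575, 525, 600 and 575 bp. They continued with 475, 325, 600, 625, 475, 525, 550, 675, 150, 300 and 125 bp. Regions of 500 bp or more lay among narrower ones over most of the row. The 3 widest were 37920932 to 37921606 (675 bp), 37901332 to 37901956 (625 bp) and 37874057 to 37874656 (600 bp, as also at 37890207).

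The spaces between the arrays held 1 region in all. Their limits were drawn with the map known, and those of beta and gamma lie within 2 kb of a region, so no density ratio is given for them. Between beta and gamma, where the gene table places Slc25a2, which encodes a mitochondrial ornithine carrier, and Taf7, which encodes a subunit of the general transcription factor TFIID, 140 kb held 0 regions. A stretch of 143 kb, from 37678157 to 37821181, was the longest without a region in the whole window, and it reached from the last beta to the first gamma region. It was not rare on the genome scale, since 6.46% of autosomal gaps were as long and 31.4% of autosomal windows of 140 kb were empty. Whether reads could be placed there is not recorded in the list.

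Between alpha and beta stood a single region of 425 bp, at 37377907 to 37378331. It was separated by 128 kb from the last alpha region and by 81.9 kb from the first beta region. Of 52216 autosomal regions with a neighbour on both sides, 3.92% were at least 81.9 kb from the nearer one. HS5-1 is known to lie in this space, but its mm9 position was not used and the region was not assigned to it. This count was the usual one, since the median autosomal window of 70 kb also held 1 region.

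In the left flank, which ends before the alpha array, the 3 widest regions were 36681682 to 36682356 and 36689257 to 36689931 (675 bp each) and 36685007 to 36685656 (650 bp). All 3 stood within a row of 4 sites. The longest distance in that flank, 122 kb, followed the region at 36724957, and the shortest, 2.76 kb, followed 36560007. A further 143 kb without a region, from 36962932 to 37105481, spanned the limit set for the start of the alpha array.

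In the right flank the 3 widest regions were 38011607 to 38012331 and 38318632 to 38319356 (725 bp each) and 38042932 to 38043631 (700 bp). The last of these belonged to a row of 4 sites from 38036832 to 38047106, each 575 to 700 bp wide and 2.90 to 3.53 kb from the next. Of the autosomal rows of at least 4 sites found in the same way, 32 of 1968 (1.63%) were at least as even as that row. That set also holds longer rows, so the share does not compare rows of equal length. The longest distance in the right flank, 86.7 kb, lay after the region at 38184382, and the shortest, 1.74 kb, after 38304057.

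The limits of the arrays decided the place of few regions. The first region beyond the gamma limit, 200 bp wide at 38001082 to 38001281, lay within 2 kb of it, and the last inside, 125 bp wide at 37968532 to 37968656, lay over 31 kb away. At the other end the first gamma region, at 37821182, lay within 2 kb of its limit. The last beta region, at 37677882 to 37678156, also lay within 2 kb of its own. At the start of alpha no region lay within 15 kb of the limit on either side.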

How the data were processed

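CTCF binding was measured by ChIP-seq in 1 library of double-negative thymocytes. The authors deposited a browser track of 825544 bins of 25 bp, with positions and no score. Bowtie and mm9 are named in the submitters' processing notes. How peaks were called, at which threshold and with which control, and how reads that fit several similar exons were handled, is not given in the sources used here. Depth is unknown.

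Touching bins were joined into regions, and positions are 1-based. A region belonged to the part that held its centre. The outer limits of the arrays came with the choice of members, and the inner limits are known approximate positions, not read from an annotation. Sites are regions joined within 1000 bp. Intervals are exact at 95% (Poisson for counts, Clopper-Pearson for shares, binomial for ratios). Windows of equal length were laid end to end on each autosome from its first region. Named were, in each flank and array, the 3 widest regions and the longest and shortest distance, and every region between arrays.

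The members, limits and comparisons were chosen with earlier results of these data known. Rows of neighbours within 15 kb and the parts of each array were added after the values were seen. Alternatives were joining within 200 and 1000 bp, leaving out regions of 100 bp or less, limits moved by 10 kb, single flanks, a width of 600 bp and end-to-start gaps. The code was tested on simulated data. Gene names and their order came from RefSeq (GRCm38.p6), and coordinates were not converted. Sequences are not printed. Python 3.11.15, numpy 2.4.6, scipy 1.17.1 and matplotlib 3.10.9 were used.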

Additional observations from a re-analysis of the deposited data

How the results depend on the processing

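For 11 results 68 alternatives were run. Of these, 58 gave a value inside the reported counting interval or, for counts and coefficients of variation, within 1.5 times the reported value. The other 10 moved. A reversal could be called only for the ratio of gamma to the flanks, whose interval excluded 1, and was not seen there. Without the longest distance the coefficient of variation became 0.510 in alpha and 0.492 in gamma. At 600 bp or more, which fewer regions reach by construction, the share of wide regions became 0% in alpha, 0% in beta and 19.0% in gamma. The 6 gaps of up to 1000 bp within the arrays became 2 with joining within 200 bp, 0 with joining within 1000 bp (by construction) and 2 without regions of 100 bp or less. The gamma row of 19 sites became 7 with neighbours within 10 kb and 7 within 8 kb. The ratio of the 3 arrays to the flanks had an interval above 1 with limits narrowed by 10 kb (1.60, 1.05 to 2.43) and against the left flank alone, and one that included 1 in the other settings. The ratio of gamma to the flanks ran from 1.94 to 3.44 over its alternatives, each with an interval above 1. Removing the longest distance and the limits of the rows were chosen after seeing the data. No paired analysis was possible because only 1 library has values. Regions that the authors' threshold left out cannot be seen, so a stretch without regions does not show that CTCF was absent.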
